A study of Mus musculus with 2 samples.

Results

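Ccl-low microglia are hippocampal cells that carried the transcripts of resident microglia and next to none of the chemokine transcripts Ccl3 and Ccl4. They were taken from raw counts of unique molecular identifiers (UMIs) per cell barcode: P2ry12, Cx3cr1, Csf1r, Selplg and Gpr34 had to sum to at least 10, Ccl3 and Ccl4 to under 5, and Cd74 to under 10. Barcodes in which Mog, Mag, Ermn, Opalin and Cldn11, genes of oligodendrocytes, summed to 10 or more were left out, as were barcodes in which Folr1, Kcnj13, Sostdc1, Calml4, Cox8b and Kl, genes of the choroid plexus, summed to 8 or more. Of 10015 barcodes in the series 689 met the rule, 399 of 4572 in the GlaKO library and 290 of 5443 in the wt library. Both libraries came from hippocampi of 57-week-old mice. GlaKO mice model Fabry disease through a disrupted Gla gene, the source of alpha-galactosidase A in lysosomes, and littermates labelled wt were the controls. In both groups mice were anesthetized, perfused with saline and their hippocampi dissociated with enzymes, after which debris was removed on a gradient, cells were sorted with the viability dye 7-AAD, and 10000 cells per sample were loaded for 3' sequencing with Chromium version 3.1 chemistry. Each genotype had 1 library, and how many animals went into it is not stated, so every difference below is one between libraries, without replicates and without a test.

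Microglia are the resident macrophages of the brain. They survey the tissue with motile processes, which they steer with the purine receptor P2ry12 and the fractalkine receptor Cx3cr1, and they need signalling through the receptor Csf1r to survive. Ccl3 and Ccl4 are chemokines that attract leukocytes, and microglia make them together with cytokines such as Tnf and Il1b when pattern recognition receptors signal through NF-kB. In Fabry disease glycosphingolipids accumulate in lysosomes, and lysosomal degradation is a main task of microglia.

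Depth was 29914106 UMIs in the GlaKO library and 31929688 UMIs in the wt library, and 12744 genes were listed for both. Ccl-low microglia were deeper in the GlaKO library, with a median of 6079 UMIs per cell (range 1410 to 19128), against 4635 (1343 to 15275) in the wt library. The libraries shared 6 barcodes, none of them among Ccl-low microglia. Mitochondrially encoded transcripts made up 1.22% of their UMIs in GlaKO and 1.02% in wt. Gla itself had 21 UMIs in GlaKO Ccl-low microglia (Poisson 95% interval 13 to 32.1) and 17 UMIs in wt Ccl-low microglia (9.9 to 27.2). These are 8.61 and 11.9 CPM, UMIs of the gene per 1000000 UMIs of the class, a log2 ratio of -0.47 whose interval runs from -1.46 to 0.55. Since 3' tags need not cover the stretch of Gla that was disrupted, this count checks neither label. All intervals given here cover counting error only.

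The microglia label was checked on genes the rule did not use. After every cell was thinned to 1500 UMIs, which removes differences in depth, a UMI of the complement gene C1qa, abundant in microglia, was found in 98.7% of GlaKO and 100% of wt Ccl-low microglia. Background from free RNA was lower: among cells picked by the oligodendrocyte genes, whose median depth was 6711 UMIs in GlaKO and 5821 UMIs in wt, C1qa was seen in 4.78% and 6.16%. Tmem119, a surface protein of resident microglia, was seen in 80.6% of GlaKO and 84.3% of wt Ccl-low microglia, and Siglech, a lectin of microglia, in 74.7% and 70.0%. Sall1, the transcription factor that sets microglia apart from other macrophages, was sparser, in 31.8% of GlaKO and 28.2% of wt Ccl-low microglia, against 3.26% and 3.60% of the cells picked by oligodendrocyte genes.

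Ccl-low microglia made up 8.73% of GlaKO barcodes (95% Clopper-Pearson interval 7.93 to 9.58) and 5.33% of wt barcodes (4.75 to 5.96). Microglia that met every other limit but held 5 or more UMIs of Ccl3 and Ccl4, called Ccl-high microglia here, numbered 308 in GlaKO and 154 in wt. Of both classes together, the Ccl-low one took 56.4% in GlaKO (52.7 to 60.1) and 65.3% in wt (60.7 to 69.7). A limit in raw UMIs depends on depth, and Ccl-high microglia were the deeper class, with medians of 6912.5 UMIs in GlaKO and 6577 UMIs in wt. With the same rule on cells thinned to 1500 UMIs the Ccl-low share was 74.4% in GlaKO and 82.9% in wt, so the levels depended on depth while the GlaKO share was the lower one under both rules. The dissociation, the gradient and the sort can all change which cells reach a library, and their part in these shares was not tested.

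The limits cut through a continuous range of values. Ccl3 and Ccl4 together had 0 UMIs in 238 GlaKO and 193 wt Ccl-low microglia, 1 UMI in 81 and 60, 2 in 40 and 18, 3 in 28 and 10, and 4 in 12 and 9. Just outside the limit, 8 GlaKO and 9 wt microglia had 5 UMIs, and 17 and 11 had 6. The microglia markers of the rule had a median sum of 64 UMIs in GlaKO and 50 UMIs in wt, well above their limit. At that limit 4 cells in each library had 10 UMIs and were kept, and 3 cells in each had 9 and were not. The highest Cd74 count was 6 in GlaKO and 4 in wt.

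A few Ccl-low barcodes also held transcripts of other cell types, and more so in the GlaKO library. The 8 T cell genes summed to 235 CPM in GlaKO, where 7 cells held 20 UMIs or more and the top 5 cells held 83.2% of the UMIs, against 8.40 CPM and no such cell in wt, where Cd3e and Cd8a were at 0. Astrocyte genes summed to 599 CPM in GlaKO and 435 CPM in wt, with 13 and 6 cells at 10 UMIs or more. Genes of oligodendrocyte precursors summed to 93.9 CPM in GlaKO and 28.0 CPM in wt, those of monocytes to 110 and 23.8 CPM, and those of oligodendrocytes to 1349 and 926 CPM. Some lists stood the other way: endothelial genes summed to 40.2 CPM in GlaKO and 118 CPM in wt, choroid plexus genes to 82.0 and 176 CPM, and genes of border macrophages to 155 and 189 CPM. The sort was for viability and would not remove any of these types. Genes that depend on such barcodes are named as they come up, with their value once the barcodes are left out.

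The low level of Ccl3 and Ccl4 went along with low levels of other inflammatory transcripts. Ccl-low microglia were set against Ccl-high microglia within each library, over 3824 genes with at least 100 summed UMIs in each library and with the genes of the rule left out. A gene was called where the ratio reached 1.5-fold, its interval excluded equal levels, and both libraries gave the same direction. So counted, 42 genes were lower in Ccl-low microglia, 1.10% of the genes compared, and 4 were higher, 0.105%. The median over all genes compared was 0.03 in GlaKO and 0.11 in wt on the log2 scale. The cells were divided by Ccl3 and Ccl4, so this is a description of what goes with them.

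Among genes lower in Ccl-low microglia, ranked by the interval's bound nearest to equal levels, Apoe stood first. Apoe, the main lipid carrier of the brain, had 1382 CPM in Ccl-low and 6392 CPM in Ccl-high microglia of the GlaKO library, a log2 ratio of -2.21 (-2.26 to -2.16). In the wt library it had 1696 CPM in Ccl-low and 6225 CPM in Ccl-high microglia, a log2 ratio of -1.88 (-1.94 to -1.81). Csf1, a ligand of the receptor that microglia depend on, had 44.7 against 188 CPM in GlaKO and 43.4 against 193 CPM in wt, log2 ratios of -2.07 and -2.15. Il1b, the cytokine interleukin-1 beta, had 85.3 against 329 CPM in GlaKO and 64.4 against 363 CPM in wt, log2 ratios of -1.95 and -2.49. It was carried by few cells: 8.77% of GlaKO and 7.24% of wt Ccl-low microglia had a UMI, and 1 wt cell held 45.7% of that library's Il1b UMIs. Bcl2a1d, a member of a family of anti-apoptotic genes with near-identical copies, had log2 ratios of -2.12 and -2.63. The copies Bcl2a1a (-1.29 and -1.10) and Bcl2a1b (-0.87 and -1.04) were lower too, and how their reads were divided between them is uncertain.

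Chemokines other than those of the rule were low in the same cells. Ccl2, which attracts monocytes, had 64.0 CPM in Ccl-low and 190 CPM in Ccl-high microglia of the GlaKO library, a log2 ratio of -1.57, and 35.7 and 226 CPM in wt, -2.66. Ccl12 had log2 ratios of -1.28 in GlaKO and -2.10 in wt. Cxcl2, which attracts neutrophils, stood at -2.14 and -1.62, but 1 cell held 56.2% of its UMIs in GlaKO and 61.7% in wt Ccl-low microglia. Wfdc17 was as concentrated: 1 of the wt Ccl-high microglia held 76.6% of its UMIs there, and its log2 ratio of -5.25 in wt became -3.57 without the top cell of each class, while that of -1.82 in GlaKO became -3.32. The remaining genes of the first 12 were Egr3, an immediate-early transcription factor (-1.86 and -1.79), the adhesion molecule Vcam1 (-1.36 and -1.35), the lysozyme Lyz2 (-1.22 and -0.94) and the lipopolysaccharide co-receptor Cd14 (-0.94 and -0.93). Of the Vcam1 UMIs of wt Ccl-high microglia 48.8% were in 1 cell, and the log2 ratio of Vcam1 was -1.10 in GlaKO and -0.70 in wt without the top cell of each class.

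The bases before the start sites of 4 of these genes follow, chosen because they carry the difference and because Cxcl2 and Bcl2a1d hold the matches discussed. They run 5' to 3' over the 250 bases before the start site annotated by RefSeq on GRCm38.p6, and capitals mark a motif match. Il1b lies at chr2:129371140-129371389 on the minus strand, Csf1 at chr3:107760470-107760719 on the minus strand, Bcl2a1d at chr9:88731851-88732100 on the minus strand and Cxcl2 at chr5:90903649-90903898 on the plus strand.
Il1b: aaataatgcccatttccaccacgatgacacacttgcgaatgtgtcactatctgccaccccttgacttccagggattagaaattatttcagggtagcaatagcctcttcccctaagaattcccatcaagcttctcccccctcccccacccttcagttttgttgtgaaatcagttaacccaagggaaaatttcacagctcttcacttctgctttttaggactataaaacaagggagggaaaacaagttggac
Csf1: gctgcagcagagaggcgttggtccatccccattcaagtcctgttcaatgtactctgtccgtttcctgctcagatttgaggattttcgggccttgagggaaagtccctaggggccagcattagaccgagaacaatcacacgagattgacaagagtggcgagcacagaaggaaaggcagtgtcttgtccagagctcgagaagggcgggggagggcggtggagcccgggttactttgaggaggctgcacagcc
Bcl2a1d: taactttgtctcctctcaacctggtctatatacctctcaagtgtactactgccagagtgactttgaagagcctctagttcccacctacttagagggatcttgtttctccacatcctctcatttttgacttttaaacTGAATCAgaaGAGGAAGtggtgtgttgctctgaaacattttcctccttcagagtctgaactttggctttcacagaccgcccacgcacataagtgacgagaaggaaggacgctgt
Cxcl2: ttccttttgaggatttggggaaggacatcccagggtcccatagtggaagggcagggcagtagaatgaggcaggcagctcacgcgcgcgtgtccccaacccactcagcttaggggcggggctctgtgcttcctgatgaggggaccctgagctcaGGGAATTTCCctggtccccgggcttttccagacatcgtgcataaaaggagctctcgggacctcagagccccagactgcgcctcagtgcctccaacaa
Both strands were searched for the NF-kB consensus of 10 bases and a separate NF-kB pattern of 9 bases, GGGANTTCC. Also searched were the AP-1 pattern TGANTCA, in which N is any base, the cyclic AMP response element TGACGTCA and the PU.1 motif GAGGAAG. Cxcl2 held an NF-kB consensus match that began 97 bases before the start, a motif found before 5% of all 32851 start sites. Bcl2a1d held a match to the AP-1 pattern, TGAATCA, 114 bases before its start and a PU.1 match 104 bases before it. These patterns, with any base in the middle of the first, were found before 6.75% and 10.6% of start sites. Il1b and Csf1 held none of the motifs in this window. Of the 12 genes named as lower, 8 had an entry, and 1 of the 8 held an NF-kB match. GGGANTTCC occurred before 1.43% and TGACGTCA before 1.55% of start sites. The match is one of letters and says nothing about binding.

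**Figure D1:**
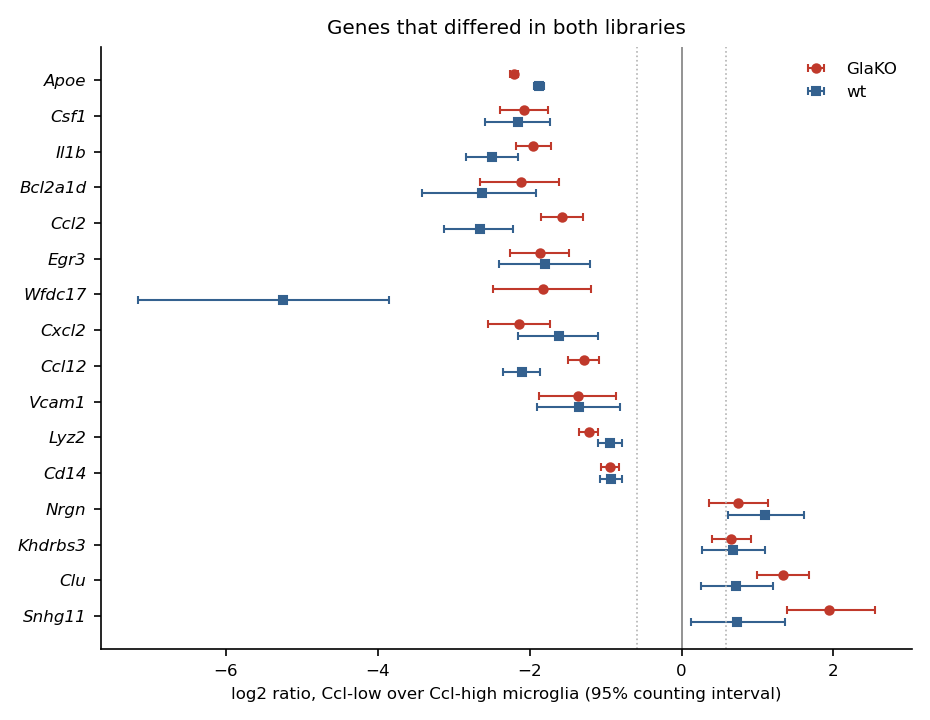
Log2 ratio of Ccl-low over Ccl-high microglia (x axis) for the 12 genes named as lower and the 4 called higher in both libraries (rows), with GlaKO as circles and wt as squares. Bars are 95% counting intervals, dotted lines mark 1.5-fold. Apoe stood at -2.21 in GlaKO and -1.88 in wt, and Wfdc17 at -1.82 and -5.25.

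By function, chemokines and cytokines had the largest share of genes called lower among the lists compared: 8 of 11 compared genes were lower in Ccl-low microglia in both libraries, with list medians of -0.94 in GlaKO and -1.31 in wt. Besides those named they were Tnf (-0.84 and -1.31), Cxcl16 (-0.94 and -0.98) and Ccl9 (-0.66 and -0.79). Il1a, at -0.44 and -0.82, did not reach the call in both, and Tgfb1, which maintains the microglial state, stood at 0.15 and 0.12. Of 14 genes of the NF-kB pathway and its feedback 3 were lower: the inhibitor Nfkbid (-0.69 and -1.02), the maturation marker Cd83 (-0.80 and -0.68) and the receptor Tlr2 (-0.64 and -0.81). Of 7 interferon-stimulated genes 4 were lower, among them Isg15 (-0.97 and -1.90), Ifi27l2a (-1.19 and -1.25) and Slfn2 (-0.67 and -1.31).

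All 15 compared genes of the disease-associated microglia signature lay below 0 in both libraries, with medians of -0.45 in GlaKO and -0.36 in wt, and 3 of them, Apoe, Csf1 and Lyz2, were called. The cathepsin genes of that list were not called and stood at -0.45 and -0.38 (Ctsb), -0.34 and -0.21 (Ctsz), -0.20 and -0.03 (Ctsd) and -0.17 and -0.20 (Ctsl). The complement receptor C3ar1 was lower (-0.60 and -0.62), the only one called among 12 compared genes of complement and Fc receptors. Further genes called lower, outside the rule for named genes and chosen after their values were seen, were Capg, an actin-capping protein (-0.85 and -1.11), Gpr65, a proton-sensing receptor (-1.48 and -0.90), and Hcar2, a receptor for hydroxycarboxylic acids (-1.03 and -1.54). So were Ccrl2, a chemokine-binding receptor (-1.12 and -1.02), the transcription regulator Id2 (-0.82 and -1.02), the kinase Pim1 (-0.80 and -1.53), the stress-induced Gadd45b (-0.70 and -1.78) and Cdkn1a, an inhibitor of the cell cycle (-0.89 and -0.60).

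Most resident microglia genes stood slightly above equal levels, as did most genes compared. None of 30 such microglia genes outside the rule was called, which at background shares of 1.10% and 0.105% is what a list of this size would mostly show. Their medians were 0.11 in GlaKO and 0.17 in wt, with 25 and 23 of the 30 above 0. Of all 3824 genes compared, 2146 in GlaKO and 2562 in wt were above 0, with medians of 0.03 and 0.11. Slc2a5, a fructose transporter of microglia, was the highest, with 293 CPM in Ccl-low and 222 CPM in Ccl-high microglia of GlaKO (0.40) and 273 and 200 CPM in wt (0.45). Tmem119 stood at 0.21 in GlaKO and 0.39 in wt. No gene was called among 32 lysosomal enzymes, whose medians were -0.10 in GlaKO and -0.09 in wt, among 24 genes of the lysosomal membrane and its acidification, or among 13 heat-shock genes. Mitochondrially encoded genes pointed different ways, with medians of 0.20 in GlaKO and -0.15 in wt and no call in either.

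Of the 4 genes called higher in Ccl-low microglia, Snhg11 and, in GlaKO, Clu depended on barcodes with markers of other cell types, and Khdrbs3 did not. Khdrbs3, an RNA-binding protein, stood at 0.65 in GlaKO and 0.68 in wt. It was seen in 48.1% of GlaKO and 33.5% of wt Ccl-low microglia. Nrgn, a neuronal gene of calmodulin signalling and one of the neuronal markers, stood at 0.74 and 1.10, Clu, a chaperone abundant in astrocytes, at 1.33 and 0.72, and Snhg11, a noncoding RNA, at 1.95 and 0.73. Once barcodes with 10 or more UMIs of another type's markers were left out of both classes (20 or more for oligodendrocytes), an alternative added after seeing the data, Khdrbs3 stood at 0.65 in both libraries. Under the same limit Clu stood at 0.15 in GlaKO and 0.59 in wt, and Snhg11 at 0.02 and 0.15. Nrgn is one of the markers that set this limit, so its value under it is not informative. Neuronal marker genes summed to 226 CPM in GlaKO Ccl-low against 115 CPM in GlaKO Ccl-high microglia, and to 218 against 116 CPM in wt.

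Summed levels were graded across the number of Ccl3 and Ccl4 UMIs. In cells with 0, 1 to 4, 5 to 19 and 20 or more such UMIs, Apoe had 885, 2034, 5442 and 6866 CPM in the GlaKO library. In the wt library it had 1012, 2793, 4828 and 7262 CPM. Summed Apoe thus differed within the Ccl-low class itself, between cells with none and cells with a few chemokine UMIs. These sums rest largely on few cells: the 10 cells richest in Apoe held 57.9% of its UMIs over GlaKO and 57.0% over wt Ccl-low microglia. Il1b had 45.5, 138, 234 and 377 CPM in GlaKO and 31.8, 117, 342 and 378 CPM in wt. Csf1 behaved differently, with 44.0, 45.5, 144 and 210 CPM in GlaKO and 40.9, 47.4, 82.1 and 275 CPM in wt, and was about level within the Ccl-low class. P2ry12, a gene of the rule, was higher in cells with no such UMI than in those with 20 or more, with 2405, 2331, 2001 and 1783 CPM in GlaKO and 2505, 2177, 1684 and 1766 CPM in wt. Median depth was lowest in the first and highest in the last of these bins, at 5705, 6549, 6378 and 7092 UMIs in GlaKO and 4164, 5679, 5664 and 6985 UMIs in wt, and its part in these grades was not tested.

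**Figure D2:**
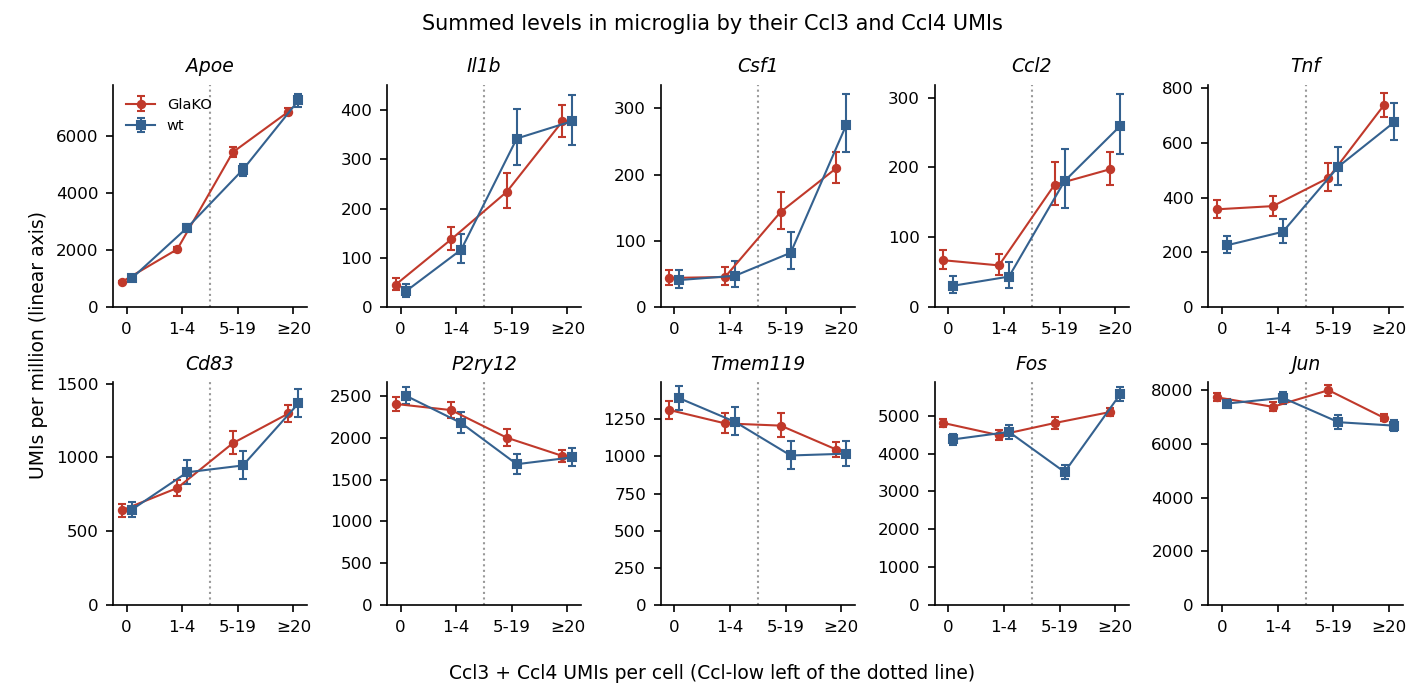
Summed level in CPM (y axis, linear, from 0) of 10 genes in microglia with 0, 1 to 4, 5 to 19 and 20 or more UMIs of Ccl3 and Ccl4 (x axis), GlaKO as circles and wt as squares, with 95% Poisson intervals. Cells left of the dotted line are Ccl-low. Apoe ran from 885 to 6866 CPM over the GlaKO bins and from 1012 to 7262 CPM over the wt bins.

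Within the class Apoe was the gene that varied most between cells. In cells thinned to 1500 UMIs its Fano factor, the variance over the mean, was 31.3 in GlaKO and 31.7 in wt, against medians of 1.05 and 1.04 over 4191 genes. In the counts before thinning, the 10 cells richest in Apoe held 57.9% of its UMIs in GlaKO and 57.0% in wt, and 22.1% of GlaKO and 18.3% of wt Ccl-low microglia had none. After thinning, the 10 cells then richest in Apoe held 53.4% and 52.7%, and 224 of 396 GlaKO and 141 of 287 wt cells had none. In thinned cells at least 10 of 1500 UMIs were Apoe in 5.05% of GlaKO and 5.92% of wt Ccl-low microglia, against 13.6% and 13.7% of Ccl-high microglia. The difference between the classes thus lay partly in how many cells were rich in Apoe. Of the Apoe UMIs of thinned Ccl-high microglia, the 10 richest cells held 51.7% in GlaKO and 79.9% in wt. Apoe is abundant in glia other than microglia: cells picked by oligodendrocyte genes had 4750 CPM in GlaKO and 4965 CPM in wt, and the part of free RNA and doublets was not tested. Without barcodes holding markers of another type the log2 ratio of Ccl-low over Ccl-high was -2.87 in GlaKO and -2.03 in wt. With the chemokine limit set as 5 UMIs per 10000 UMIs of the cell it was -1.15 in GlaKO and -2.18 in wt. Cst3, the protease inhibitor cystatin C, came next in spread, with Fano factors of 21.7 and 27.8.

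Immediate-early genes were also among the genes that varied most between Ccl-low microglia. These are transcription factors and feedback regulators, such as Fos, Jun, Egr1 and Dusp1, that are transcribed within minutes of a stimulus. Fos had Fano factors of 5.54 in GlaKO and 5.73 in wt and Jun 5.44 and 5.47. Of the 30 genes with the highest spread in both libraries, 8 were of this list of 25 and 3 of the 14 heat-shock genes. How many genes of each list were among the 4191 ranked was not counted, and the Fano factor was not adjusted for level. Gm26870 (13.2 and 26.1) and Tmsb4x (6.93 and 6.37) ranked above all immediate-early genes. Of 1500 UMIs, the 25 immediate-early genes took a median of 67 in GlaKO cells, with a range of 0 to 186, and of 66 in wt cells, with a range of 0 to 175. Most cells were thus loaded with these transcripts, and the libraries were alike in median and range. A small group had almost none: 26 GlaKO cells (6.57%, 4.33 to 9.47) and 19 wt cells (6.62%, 4.03 to 10.2) held under 10, against 2 GlaKO and 3 wt Ccl-high microglia (0.65% and 1.96%). Some of this group had few genes for their depth, such as a GlaKO cell with 1113 genes in 3750 UMIs and a wt cell with 1198 in 3675. Others did not, such as a GlaKO cell with 2172 genes in 3981 UMIs and a wt cell with 1963 in 3621. Whether the group differs in cell quality was not tested.

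**Figure D3:**
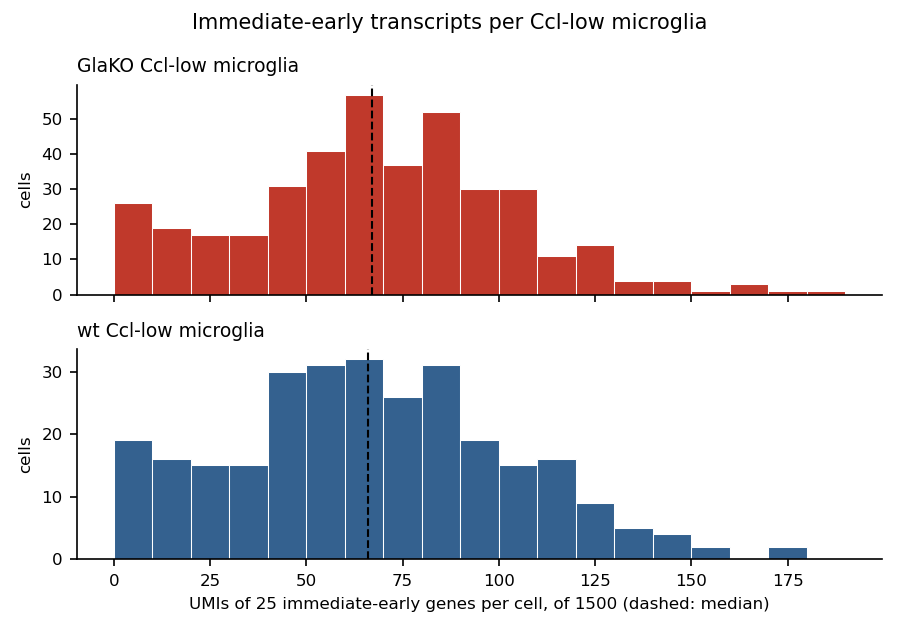
Number of Ccl-low microglia (y axis) by the UMIs of 25 immediate-early genes among 1500 UMIs of the cell (x axis, bins of 10), GlaKO above and wt below. The dashed line is the median, 67 in GlaKO and 66 in wt, and the bin nearest 0 holds 26 GlaKO and 19 wt cells.

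Most cells with a low immediate-early load carried the genes of microglia, with exceptions in GlaKO. The 30 resident microglia genes outside the rule summed to between 1 and 134 of 1500 UMIs (median 93) in the 26 GlaKO cells with under 10 immediate-early UMIs, and to between 64 and 170 (median 91) in the 19 such wt cells. Of those GlaKO cells 6 held under 30, a limit set after seeing the data, with depths of 6157 to 13448 UMIs, against 7 of the 370 other GlaKO cells. No such wt cell and 3 of the 268 other wt cells did. Of the thinned cells, 79 in GlaKO and 65 in wt held under 40 immediate-early UMIs. Ctss, the protease cathepsin S, averaged 11.3 UMIs per cell in those GlaKO cells and 9.28 in the GlaKO cells with 40 or more, and 10.4 against 9.12 in wt. Cst3 averaged 87.3 against 78.4 UMIs in GlaKO and 106 against 74.3 in wt, and P2ry12 3.32 against 3.72 in GlaKO and 4.02 against 3.46 in wt. Tmem119 averaged 1.91 against 2.18 in GlaKO and 2.57 against 2.10 in wt. Atf3, a stress-induced transcription factor that is itself in the list, averaged 0.75 UMIs per cell in the GlaKO cells with a low load and 5.11 in the others, and 0.46 and 5.47 in wt. Nfkbia, an inhibitor that NF-kB itself induces and that is not in the list, averaged 0.56 against 3.73 in GlaKO and 0.40 against 2.75 in wt. The 26 GlaKO cells with under 10 immediate-early UMIs had a median of 8.5 UMIs of the 5 rule markers, against 18 in the GlaKO cells with 40 to 79, and the 19 such wt cells had 11 against 17. Mitochondrially encoded transcripts had medians of 24 against 17 UMIs in the same cells of GlaKO and 17 against 16 UMIs in those of wt. Ccl-high microglia had a median load of 74 in GlaKO and 70 in wt. Between the classes Fos stood at -0.10 in GlaKO and -0.08 in wt, Jun at 0.05 and 0.17, and 2 of 22 list genes, Egr3 and Dusp2, were called lower in Ccl-low microglia.

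GlaKO and wt Ccl-low microglia were then compared over 5400 genes with at least 100 summed UMIs over both libraries. Here 126 genes were higher in GlaKO by 1.5-fold or more with an interval that excluded equal levels, 2.33% of those compared, and 125 were lower, 2.31%. The median over all genes was -0.06 on the log2 scale, and with that shift removed the counts were 165 higher and 86 lower. Cd74 and Ermn, which the rule limits, were among the 126. Many of the genes that differed most also differed in other cell types of the same libraries, or stood nearer to equal levels once barcodes with markers of another type were left out.

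Resident microglia genes stood close together in the libraries. None of the 30 genes was called, a count close to the background shares of 2.33% and 2.31%, as are the counts of 0 for the lists of like size that follow. The median was -0.04, with Maf, a transcription factor, the highest at 0.28 and Crybb1, a crystallin expressed in microglia, the lowest at -0.24. Lysosomal enzymes, the class to which the Gla product belongs, had no called gene among 34 and a median of -0.09. Ppt1, a palmitoyl thioesterase, was the highest with 222 CPM in GlaKO and 150 CPM in wt, a log2 ratio of 0.57 (0.33 to 0.80), and Gusb, beta-glucuronidase, the lowest with 89.4 and 118 CPM, -0.40 (-0.69 to -0.10). Ppt1 was called higher in cells with no Ccl3 or Ccl4 UMI (0.684), with the chemokine limit per 10000 UMIs (0.632) and with the median shift removed (0.625). Genes of the lysosomal membrane and its acidification had no called gene among 26 and a median of -0.13. Of these Atp6v0c was called lower (-0.67) without barcodes holding other types' markers. The 9 compared genes of glycosphingolipid synthesis had a median of -0.17 and no call, with Ugcg, the glucosylceramide synthase at the head of the pathway, at -0.39 (-0.88 to 0.11).

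Genes of the disease-associated microglia signature mostly lay below equal levels in GlaKO, as did most genes compared, and the value of Apoe turned with the choice of cells. None of the signature's 16 compared genes was called, and 12 of the 16 lay below 0, as did 3248 of all 5400 genes compared. The list median was -0.20, against -0.06 over all genes. Apoe had 1382 CPM in GlaKO and 1696 CPM in wt, a log2 ratio of -0.30. It stood at -1.04 without barcodes holding other types' markers and at 0.75 with the chemokine limit set per 10000 UMIs of the cell. Under that last setting 3 of 17 compared genes were called higher, Apoe, Ccl6 (0.63) and Spp1, which had no UMI in the wt cells so chosen, and the list median was -0.06. Ccl6 was also called in thinned cells (0.67) and the lectin Lgals3 with a minimum count of 30 (1.93). With the limit in raw UMIs Cd63, a lysosomal tetraspanin, was the lowest at -0.46. Ccl6 was the highest at 0.45. The cathepsin genes Ctsd (-0.26), Ctsz (-0.31) and Ctsb (0.00) lay on or below equal levels. No gene was called among 12 of complement and Fc receptors, 16 purinergic and phagocytic receptors, 11 of TGF-beta signalling, 10 of cholesterol handling, 15 of the NF-kB pathway or 14 antioxidant enzymes. Other settings changed this for some genes. In cells with no Ccl3 or Ccl4 UMI the antioxidant enzyme Hmox1 (0.65) and Nfkbid (0.845) were called higher and Sod2 lower (-0.69). Hmox1 was also called without barcodes holding other types' markers (0.625). With a minimum count of 30, C4b (1.55) and Srebf2 (0.97) were called higher and Dhcr7 lower (-1.33). Stab1 was called lower (-0.60) without the 4% of barcodes scored highest as doublets.

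Among the lists of activation, single genes passed the limit. Of 15 chemokines and cytokines 1 was called, Ccl2, with 64.0 CPM in GlaKO and 35.7 CPM in wt (0.84). It stood at 0.11 when the chemokine limit was set per 10000 UMIs of the cell. Tnf had 362 CPM in GlaKO and 245 CPM in wt, 0.56 (0.38 to 0.75), just under the limit. Tnf was called higher in thinned cells (0.79) and without barcodes holding other types' markers (0.61). In cells with no Ccl3 or Ccl4 UMI Tnf was called higher (0.66) and Il18 lower (-0.70). Immediate-early genes had 3 of 23 called, the nuclear receptor Nr4a1 with 255 and 154 CPM (0.73), the phosphatase Dusp2 (0.62) and Fosl2 (0.59), and a list median of 0.09. Heat-shock genes had 2 of 14, Hsph1 (0.82) and the inducible Hspa1b (0.74), and a median of 0.12. With equal weight for 4 bins of depth no immediate-early gene was called, with Nr4a1 at 0.55, Fosl2 at 0.42 and Dusp2 at 0.31. Among cells with no Ccl3 or Ccl4 UMI neither heat-shock gene was called, with Hspa1b at 0.57 and Hsph1 at 0.57, and Hspb1 was called lower (-0.63). Nr4a1, Hsph1 and Hspa1b stood at 0.94, 0.74 and 0.94 without barcodes holding other types' markers, Fosl2 at 0.43 and Dusp2 at 0.19.

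All 6 compared interferon-stimulated genes lay above 0, with a median of 0.31, and Ifitm3, an antiviral membrane protein, was called (31.6 CPM in GlaKO and 16.1 CPM in wt, 0.97). It stood at -0.15 in cells with no Ccl3 or Ccl4 UMI. Of 15 genes of MHC class I and peptide loading H2-Q7 was called at 1.41, and at 0.20 without barcodes holding other types' markers. H2-Q7 is one of a family of similar genes, so reads may be divided uncertainly. Of 12 genes that answer unfolded proteins and amino acid stress 1 was called, Slc38a2, an amino acid transporter, with 469 CPM in GlaKO and 299 CPM in wt (0.65). Mitochondrially encoded genes lay above 0 in 11 of 12 cases, with a median of 0.30. Of these mt-Nd4, a subunit of complex I, was called (0.66), while mt-Nd4l, which overlaps mt-Nd4 in the genome, stood at -0.55.

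Genes that answer to glucocorticoids were divided. Fkbp5, a co-chaperone of the glucocorticoid receptor and a target of it, had 59.9 CPM in GlaKO and 111 CPM in wt Ccl-low microglia, a log2 ratio of -0.90 (-1.23 to -0.56). Ddit4, an inhibitor of mTORC1 that glucocorticoids also induce, had 37.3 and 79.1 CPM, -1.08 (-1.50 to -0.67). Mt2, a metallothionein, was higher, with 41.0 and 25.9 CPM (0.66), and at 0.46 without barcodes holding other types' markers. Tsc22d3, another target of the receptor, had 462 and 571 CPM (-0.30) and was not called, and the median of the 12 compared genes was -0.09. In Ccl-high microglia Fkbp5 stood at -0.75 and Ddit4 at -0.93. In cells picked by oligodendrocyte genes they stood at -0.73 and -0.26. In cells picked by choroid plexus genes Fkbp5 stood at -0.32 (-1.09 to 0.39), while Ddit4 was higher in GlaKO, at 0.70 (0.21 to 1.18).

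**Figure D4:**
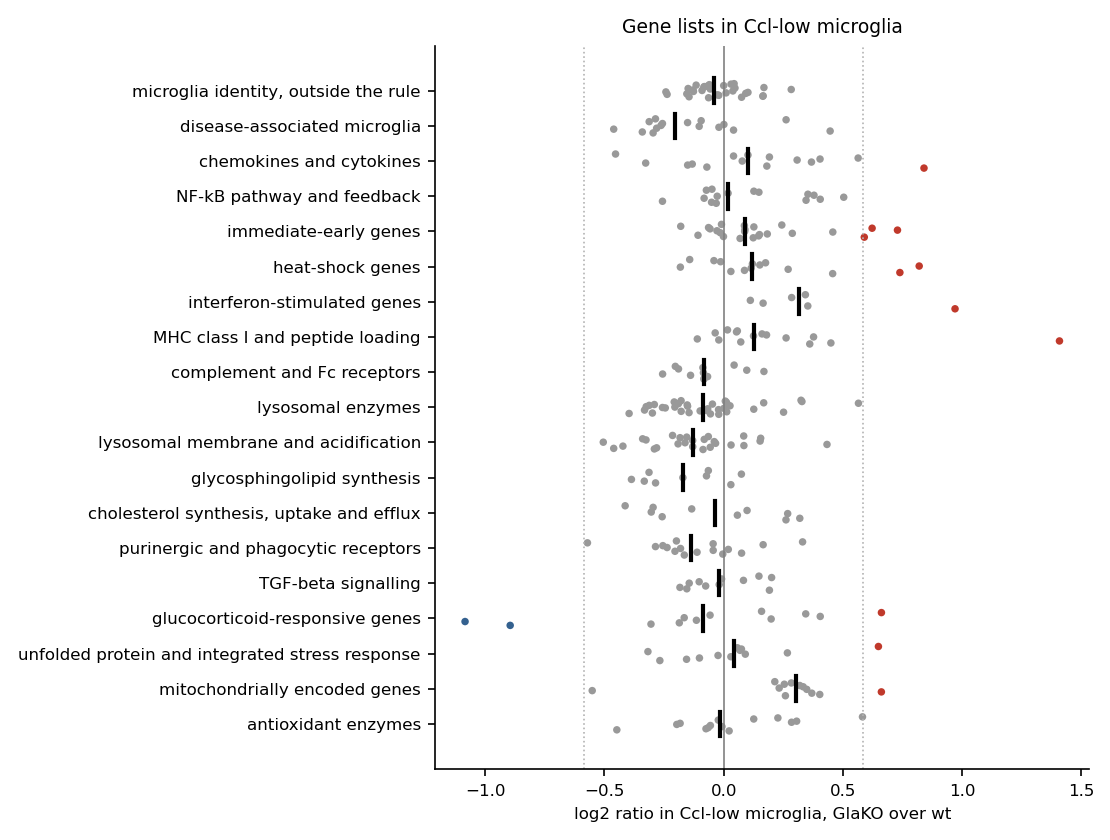
Log2 ratio of GlaKO over wt in Ccl-low microglia (x axis) for every compared gene of each list (rows). Black bars are list medians, red and blue points are genes called higher and lower in GlaKO, and dotted lines mark 1.5-fold. Resident microglia genes lie between -0.24 and 0.28, and interferon-stimulated genes all lie above 0.

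Of the genes named as higher in GlaKO and not themselves markers of another type, 7 had a ratio over 1.5-fold smaller once barcodes with markers of other types were left out, as an alternative added after seeing the data. S100a10, a partner of annexins, had 149 UMIs in GlaKO and 16 UMIs in wt Ccl-low microglia, a log2 ratio of 2.45. It stood at -0.21 without those barcodes, among the 358 GlaKO and 274 wt cells that were kept. Ptprz1, a receptor phosphatase of astrocytes and oligodendrocyte precursors, stood at 2.01 and at 0.70 without those barcodes. Fxyd5 (2.00), the matrix protein Bcan (1.93), Hopx (1.70) and Cspg5 (1.45) stood between 0.37 and 0.84 without them. Olig1, a transcription factor of the oligodendrocyte lineage, had 1.78, and 1.17 without them. In Ccl-high microglia and cells picked by oligodendrocyte or choroid plexus genes, Ptprz1 stood at 1.39, 1.21 and 1.58. In the same order Bcan stood at 1.35, 1.08 and 1.35, Cspg5 at 1.18, 0.71 and 0.58, and Hopx at 0.51, 0.12 and 0.67. S100a10 (-0.32) and Olig1 (-0.13) lay below 0 in cells picked by oligodendrocyte genes, and Fxyd5 (-0.48) in those picked by choroid plexus genes. Slc1a2, a glutamate transporter, stood at 1.36 and is one of the astrocyte markers by which the barcodes were left out. Nkg7, a gene of cytotoxic lymphocytes and one of the T cell markers, had 109 UMIs in GlaKO and 2 UMIs in wt Ccl-low microglia.

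Of the other 3 named genes, Rnaset2a and Adap2os did not depend on such barcodes, while Hbb-bs is an erythroid marker, a type the limit did not cover. Rnaset2a, a lysosomal ribonuclease gene at chromosome 17, 8115445 to 8148097 on the minus strand, had 277 CPM in GlaKO and 86.2 CPM in wt, a log2 ratio of 1.68 (1.40 to 1.97), and UMIs in 299 of 399 GlaKO and 101 of 290 wt cells. It stood at 1.72 without those barcodes, at 1.60 in Ccl-high microglia, 1.70 in cells picked by oligodendrocyte genes and 1.42 in cells picked by choroid plexus genes, so a difference of like size was found in all 4 classes. The gene has a near-identical copy, Rnaset2b, and the division of reads between them is uncertain. Adap2os, an antisense transcript at chromosome 11, 80158861 to 80177629 on the minus strand, had 89.0 CPM in GlaKO and 31.5 CPM in wt, with a 95% interval of the log2 ratio from 1.03 to 1.99. In Ccl-high microglia that interval ran from 0.96 to 2.09, and the cells picked by oligodendrocyte genes held 4 GlaKO and 2 wt UMIs of it. Whether the counting used strand is not given in the sources used here, so reads of its sense partner may be among them. Hbb-bs, a beta-globin gene, stood at 1.87 with UMIs in 120 of 399 GlaKO and 18 of 290 wt cells, and at 5.35 in cells picked by oligodendrocyte genes. Barcodes with erythroid markers were never left out, so whether Hbb-bs depends on them was not tested.

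Of the genes named as lower, 4 were past 1.5-fold in all 4 classes. Nme2, a nucleoside diphosphate kinase, had 19.7 CPM in GlaKO and 68.6 CPM in wt Ccl-low microglia, a log2 ratio of -1.80, and stood at -2.40 in Ccl-high microglia, -1.82 in cells picked by oligodendrocyte genes and -1.81 in those picked by choroid plexus genes. Hist2h2aa1, a histone gene with near-identical copies, stood at -2.47 and between -1.91 and -1.41 in the other 3 classes. Gm10076, a transcript of unknown role, stood at -1.27 and between -1.46 and -1.16, and Grcc10 at -0.85 and between -0.97 and -0.63. Chchd10, which encodes a mitochondrial protein, had -1.09 in Ccl-low and -1.51 in Ccl-high microglia, and -0.11 in cells picked by choroid plexus genes. Gm26825, a noncoding RNA, had -2.10, with -1.43 in Ccl-high microglia and -0.23 in cells picked by choroid plexus genes.

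For the remaining named genes the classes differed. Rcan1, an inhibitor of calcineurin, had 36.1 CPM in GlaKO and 86.2 CPM in wt Ccl-low microglia, a log2 ratio of -1.26 (-1.67 to -0.85), and 0.23 (-0.19 to 0.66) in Ccl-high microglia, 0.14 in cells picked by oligodendrocyte genes and -0.03 in those picked by choroid plexus genes. Its intervals in both microglia classes do not overlap, and the difference between the classes was not tested. Tcim, a small regulator of transcription, had 59.9 CPM in GlaKO and 163 CPM in wt Ccl-low microglia (-1.45), against -0.58 in Ccl-high microglia, and its UMIs came from 46 GlaKO and 53 wt cells. It stood at -0.58 in cells with no Ccl3 or Ccl4 UMI. Cdkn1c, an inhibitor of the cell cycle, had -1.11 in Ccl-low and -0.75 in Ccl-high microglia. Without barcodes holding other types' markers the lower genes named here ran from -2.59 to -0.88.

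**Figure D5:**
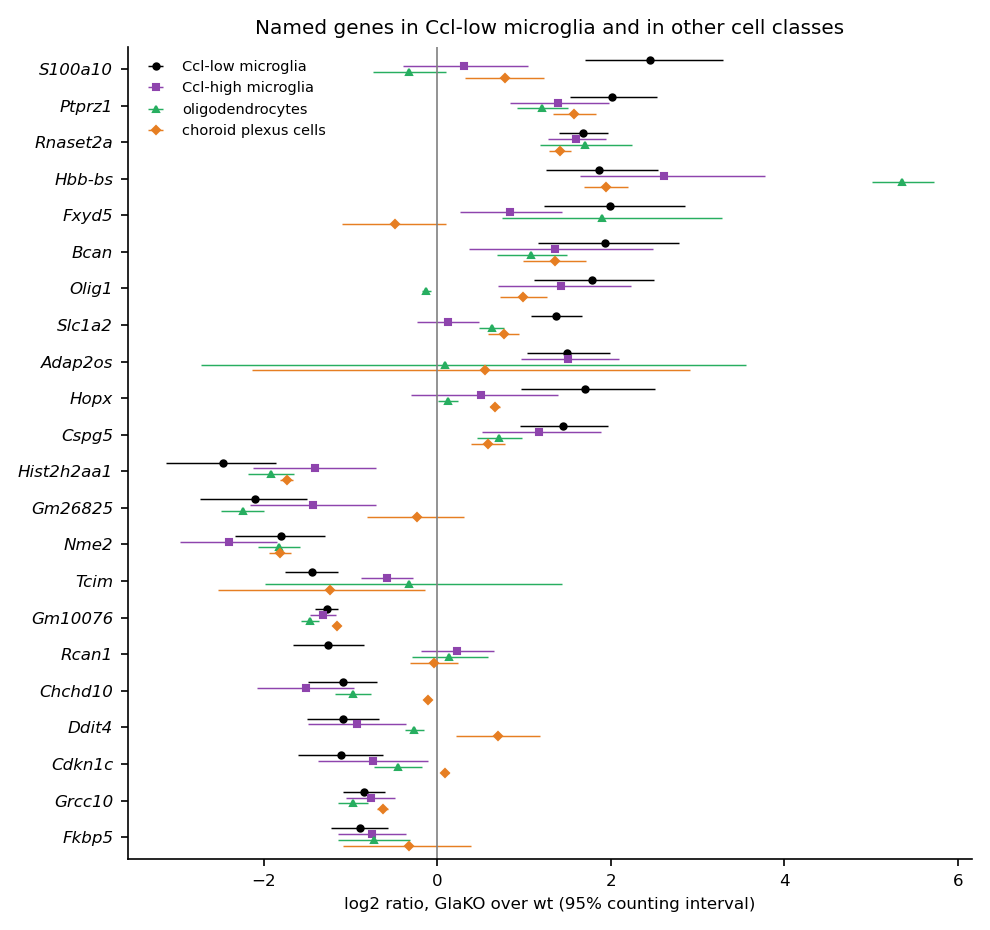
Log2 ratio of GlaKO over wt (x axis) of the genes named in the text (rows) in Ccl-low microglia, Ccl-high microglia and cells picked by oligodendrocyte or choroid plexus genes, with 95% counting intervals. Rnaset2a and Nme2 lie close together in all 4 classes, while Rcan1 stands at -1.26 in Ccl-low and 0.23 in Ccl-high microglia.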

How the data were processed

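The data are 2 single-cell RNA libraries, 1 per genotype. The authors deposited raw counts (UMIs per gene and barcode, whole numbers), which were not altered. Per the submitters' processing notes the build was mm10 and the tools were Seurat 4 in R 4.1.3 and Cell Ranger 6.0.1, and per the labels' protocols Cell Ranger 4.0 was used for demultiplexing. The annotation, the strand setting and any filter before deposit were not given in the sources used here.

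Computation used Python 3.11.15, numpy 2.4.6, scipy 1.17.1, pandas 2.3.3, scanpy 1.11.5 and matplotlib 3.10.9. All deposited barcodes that met the rule were used, with no doublet filter. Scrublet, as built into scanpy, marked 12 of the GlaKO and 4 of the wt Ccl-low microglia. It marked 1.53% of GlaKO and 0.459% of wt barcodes. Whether it found the doublets was not tested, and since the wt share was low, leaving out the 4% of barcodes with the highest score was tried as well. For each class and library, UMIs were summed by gene and scaled to 1000000 UMIs. Log2 ratios have exact conditional 95% intervals, sums exact Poisson intervals and shares exact Clopper-Pearson intervals. They cover counting error only and take UMIs as independent, so the error of a gene held by few cells is wider than printed. With 1 library per genotype no p-value was computed. The comparison of genotypes took genes with a summed count of at least 100 over both libraries, and that of classes at least 100 in each. Per-cell spread and loads used cells thinned to 1500 UMIs, which left out 3 GlaKO and 3 wt Ccl-low microglia. The procedure was tested on simulated data.

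Named genes are the 12 highest and 12 lowest by the interval's bound nearest to 0 among called genes. For the genotypes, genes were not named if 1 cell held over 25% of a library's UMIs. For the classes the library with the bound nearer to 0 counted. For lists, the called, the highest and the lowest genes are named, and other list genes given as values were chosen after their values were seen. Some genes that these rules name are not reported here. The members and lists were chosen with earlier results of these data known. Coordinates are GRCm38 and come from the GENCODE annotation, promoters from RefSeq.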

Additional observations from a re-analysis of the deposited data

Results flagged for a closer look

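In Ccl-low and Ccl-high microglia the difference between GlaKO and wt had opposite signs for 4 of 42 genes checked, the named and called list genes. For each of the 4 the interval excluded equal levels in both classes. The 42 were picked by their values in Ccl-low microglia, and the share over all genes compared was not computed. The difference between the classes was not tested, since each genotype has 1 library. Dusp2, a phosphatase of MAP kinases, had a log2 ratio of 0.62 (0.12 to 1.15) in Ccl-low and -0.38 (-0.74 to -0.02) in Ccl-high microglia. Ccl2 had 0.84 (0.38 to 1.33) in Ccl-low and -0.25 (-0.49 to -0.01) in Ccl-high microglia. Both were also lower in Ccl-low than in Ccl-high microglia in each library. Ifitm3 had 0.97 (0.28 to 1.71) in Ccl-low and -1.29 (-1.71 to -0.88) in Ccl-high microglia, and Mt2 had 0.66 (0.10 to 1.25) and -0.84 (-1.51 to -0.17).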

How the results depend on the processing

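No paired analysis was possible because each genotype has 1 library, and for the same reason no replicate could be left out. The counts of called genes changed with the settings. Against 126 genes higher in GlaKO there were 307 with a minimum count of 30, 30 with 300, 40 in thinned cells, 82 among cells with no Ccl3 or Ccl4 UMI and 42 at 2-fold. Against 125 lower there were 299, 10, 45, 95 and 13 under the same settings. Thinning left 1706 genes to compare and shared 18 of the higher and 4 of the lower calls. Leaving out barcodes with 3 or more UMIs of another type's markers kept 19 GlaKO and 42 wt cells and gave 13 higher and 12 lower genes. The limit of 10, added after seeing the data, gave 80 higher and 112 lower, of which 61 and 83 were shared. Against the 42 genes lower in Ccl-low than in Ccl-high microglia there were 63 with a minimum of 30, 17 with 300, 9 in thinned cells, 53 at the limit of 3, of which 11 were shared, and 15 at 2-fold. The other settings gave 34 to 47. Against the 4 higher there were 26 with a minimum of 30, 0 with 300, 1 in thinned cells, 31 at the limit of 3, 0 at 2-fold, and 2 each without Scrublet's doublets, without the highest scores, at the limit of 10 and with a marker sum of 20. Among the values for Ccl-low shares, the rule on thinned cells gave 10.0% of GlaKO barcodes, a marker sum of 20 gave 4.74% of wt barcodes, and of both classes the Ccl-low share was 52.2% in GlaKO with the limit per 10000 UMIs and 74.4% in GlaKO and 82.9% in wt on thinned cells. Signs turned at the limit of 3 for GlaKO over wt in Hsph1 (-0.99), and for Ccl-low over Ccl-high in GlaKO in Ccl2 (0.10), Ccl12 (0.91) and Clu (-1.38). They also turned in S100a10 at the limit of 10 (-0.21), in Ifitm3 without Ccl3 or Ccl4 UMIs (-0.15), and in wt in Clu with the limit per 10000 UMIs (-0.35) and Snhg11 in thinned cells (-0.79). The causes were not tested. Of the alternative values of named genes, 312 for GlaKO over wt stayed within the interval of the reported value, 52 moved beyond it and 3 turned sign. For Ccl-low over Ccl-high these numbers were 195, 80 and 5. Of the list medians 237 stayed and 2 moved. Depth limits genes under about 100 summed UMIs, and a single library per genotype limits every comparison of genotypes.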
